A study of Danio rerio with 69 samples.

Results

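Between 10 days and 3 months a zebrafish passes from a larva to a young adult, and gene expression in its brain was compared between those ages. The comparison used every brain array labelled 10 days or 3 months, 13 of the 69 arrays in the study. They were 7 arrays of 10-day brain, 3 collected by day and 4 by night, and 6 arrays of 3-month brain, 3 by day and 3 by night. Fish (Danio rerio) lived at 28.5 °C with 14 h of light and 10 h of darkness a day, and the line carried GFP under the aanat2 promoter, which marks the pineal gland. Brain here means what remained after the eyes and pineal gland had been taken off, and the labels call the samples of a group biological replicates. Whether a sample pooled several fish, and whether the pituitary or the meninges stayed with the brain, is not stated in the labels. RNA was hybridised to the Affymetrix Zebrafish Genome Array.

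The zebrafish brain keeps growing long after hatching. Radial glia line its ventricles, serve as astroglia and as neural stem cells, and in adults are known for very high expression of the brain aromatase cyp19a1b. Oligodendrocytes begin to wrap axons in larvae and go on for weeks, while neurons extend processes and build synapses. The blood changes too: larval red cells carry embryonic globins and adult red cells carry adult ones, and adaptive immunity matures in the same weeks.

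Levels below are log2(intensity + 16) after quantile normalisation, a change is the mean level at 3 months minus that at 10 days with day and night at equal weight, and ± is the standard error of that change from a limma model of all 69 arrays. The added 16 sets a floor of 4, so folds of dim genes are understated. A gene was called when its Benjamini-Hochberg adjusted p over 15502 probe sets was under 0.05 and the change reached 2-fold, which is 1 on the log2 scale; the words rose and fell are used of called genes alone. Correlations between arrays of the same age were 0.917 to 0.938 at 10 days and 0.922 to 0.971 at 3 months, against 0.844 to 0.899 between the ages. The GAPDH 3′/5′ ratio, a measure of RNA integrity, was 1.51 to 2.52 at 10 days and 1.21 to 5.58 at 3 months. Day replicates 1 and 2 of 3 months had 3.40 and 5.58, above every 10-day array. The 3-month night arrays had 1.21, 1.42 and 1.33, below every 10-day array. The mean log2 ratio differed by 0.0584 between the ages (exact permutation test, two-sided p = 0.868). That test pooled day and night, where these shifts were opposite, so it does not show that RNA integrity was matched. Day replicate 3 of the 3-month group stood apart in its photoreceptor transcripts, with values given beside those genes. Without the arrays of GAPDH ratio above 3, an alternative used below, that replicate is the only 3-month day array left. Counts and lost calls under that alternative therefore rest on it by day. An effect of RNA integrity cannot be told apart there from the effect of this array.

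Of markers chosen to check the tissue, the neuronal genes elavl3, gad2, snap25a and snap25b and the glial genes glula, slc1a2b and mbpa all had medians above 11 at both ages, with gfap at 8.03 and 8.63; no probe set was matched to syn2a or plp1b. elavl3, an RNA-binding protein of neurons, differed by -0.04 ± 0.40, adjusted p = 0.9673, and glula, the glutamine synthetase of astroglia, by -0.16 ± 0.15, adjusted p = 0.5179, neither of which was called. gad2, which makes GABA, and gfap, an intermediate filament of glia, differed by 0.44 ± 0.32, adjusted p = 0.3734, and 0.74 ± 0.28, adjusted p = 0.0472, both under 2-fold. Pineal transcripts stayed low at both ages, with aanat2 between 4.39 and 6.99 and the pineal opsin exorh between 4.82 and 6.77.

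The 3-month brain had 615 genes higher and 656 lower than the 10-day brain among 8781 genes tested, 7.0% and 7.47%, or 14.5% together. Over 15502 probe sets the counts were 948 higher and 1020 lower (6.12% and 6.58%, 12.7% together). Genes of adult blood, astroglia, antigen presentation, myelin, synapses, microtubules and the respiratory chain were among those that rose, and genes of ribosomal proteins, embryonic globins, muscle, skin, pituitary hormones and stress-induced transcription factors among those that fell. Large falls were more numerous than large rises: 56 genes fell and 17 rose by 8-fold or more. On 942 of the 1271 called genes (74.1%) the arrays of the ages did not overlap; over all genes, 9.79% were higher and 8.7% lower on every 3-month array than on every 10-day array. The 15 largest rises and 15 largest falls taken below were chosen among genes without an overlap, so its absence there is no result. The median change over all genes was 0.05. The shares of 7.0% higher and 7.47% lower are the background for every list count of this comparison below. The gene lists used below, 38 in all, were drawn up with earlier results of these data known, so their counts describe the lists and are not independent evidence of a direction. In these bulk samples, fewer cells of a type and less RNA per cell cannot be told apart.

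**Figure D1:**
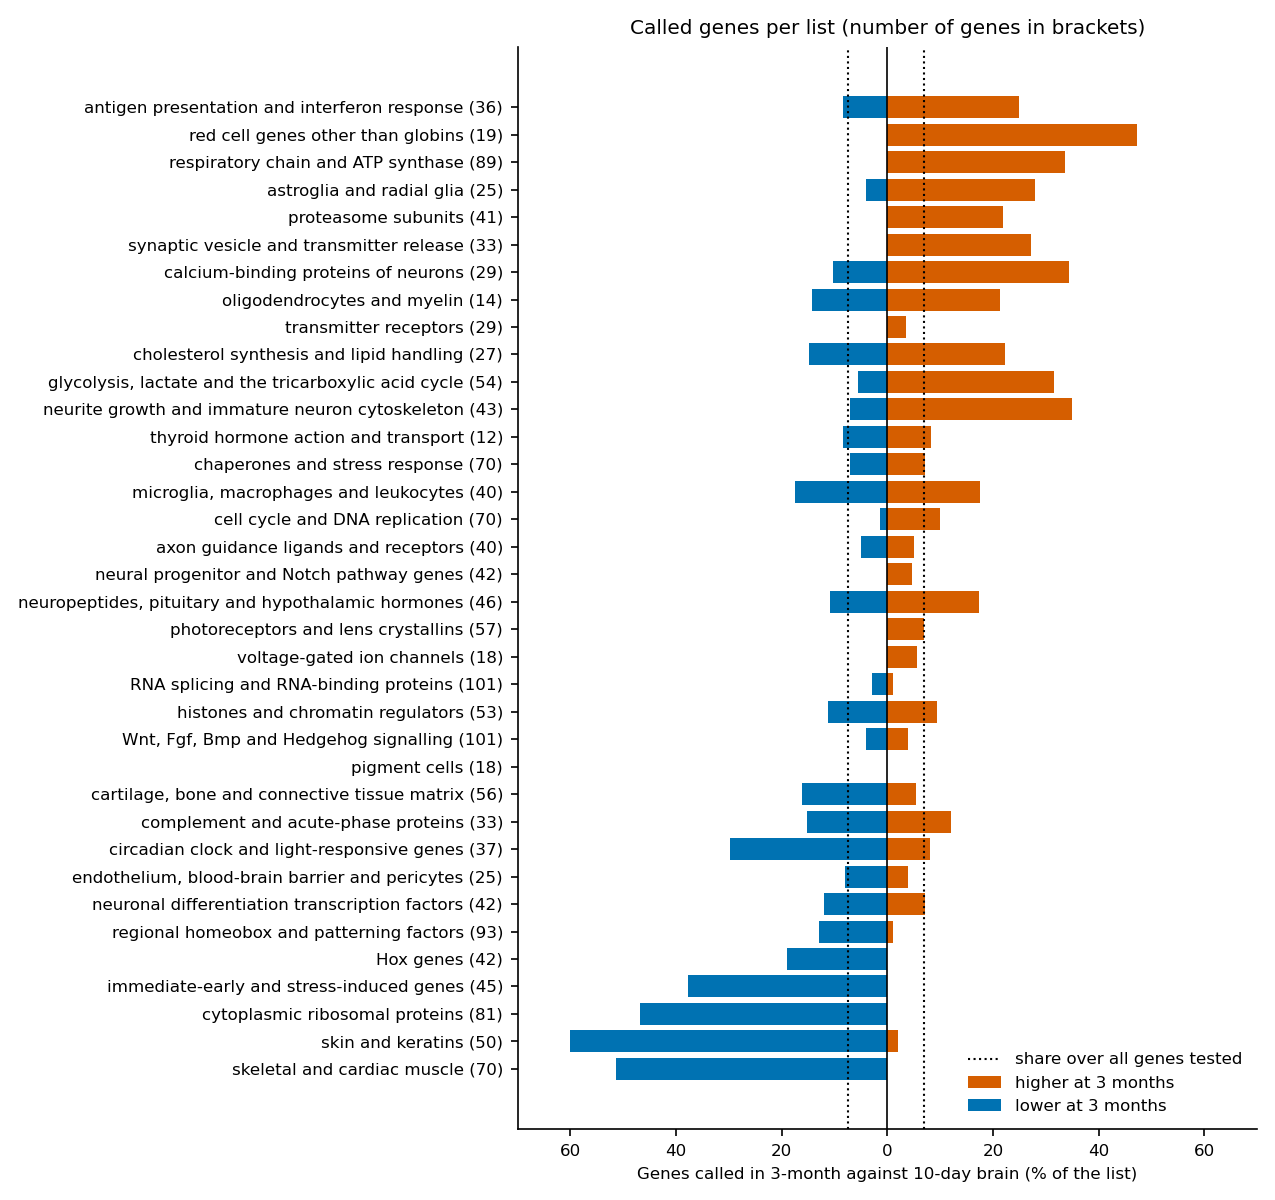
Percent of each gene list called higher (orange, right) or lower (blue, left) in 3-month brain (6 arrays) than in 10-day brain (7 arrays); the number after a name is its genes, dotted lines mark 7.0% and 7.47% over all genes, and lists of under 10 genes are left out. Red cell genes, respiratory chain genes and neurite genes reach far to the right, and muscle, skin and ribosomal protein genes far to the left.

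Among genes read from a probe set of 1 symbol, the largest rise was that of hbaa1, an adult alpha globin. A globin probe set shared by several genes rose by 9.54. The level of hbaa1 was 4.16 to 5.88 (median 4.45) at 10 days and 13.30 to 15.03 (median 13.97) at 3 months, a change of 9.22 ± 0.48, adjusted p = 1.32e-24. Every 10-day array was near the bottom of the scale and every 3-month array near the top. The size of the change depends on the added constant, with 7.79 at a constant of 64 and 10.69 at a constant of 1. hbba2, an adult beta globin, was 4.36 to 5.71 (median 4.96) at 10 days and 7.63 to 9.92 (median 8.31) at 3 months (3.39 ± 0.52, adjusted p = 4.63e-07). The embryonic globins went the other way: hbae3 was 9.07 to 11.31 (median 9.61) at 10 days and 4.59 to 5.35 (median 5.03) at 3 months (-4.96 ± 0.37, adjusted p = 2.9e-17), and hbbe2 fell by 3.81 on the log2 scale. The groups did not overlap for any of these 4 genes, all of which were chosen that way. hbbe3, another embryonic globin picked after its value was seen, was at 4.48 and 5.40 (medians) and was not called.

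Of 19 red cell genes other than globins, 9 rose and 0 fell, with a median change of 0.78. Those that rose included cahz, a carbonic anhydrase of red cells (7.19 to 8.01 (median 7.48) at 10 days and 9.92 to 10.73 (median 10.20) at 3 months; 2.74 ± 0.27), nt5c2l1 (2.28 ± 0.30), the membrane skeleton gene epb41b (2.51 ± 0.40), the haem synthesis enzyme cpox (1.78 ± 0.34) and the anion exchanger slc4a1a (1.54 ± 0.31). The transcription factors gata1a and klf1 and the first enzyme of haem synthesis, alas2, were among the others called. The labels do not say whether blood was washed out, and its part in other differences was not tested.

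Of 25 astroglial genes, 7 rose and 1 fell in the 3-month brain, and the median change was 0.74. cyp19a1b, which turns androgens into oestrogens and in fish brain is made by radial glia, was 6.22 to 6.84 (median 6.60) at 10 days and 12.97 to 13.40 (median 13.25) at 3 months, a change of 6.67 ± 0.44, adjusted p = 7.55e-20. It was close to its 10-day level on the arrays of 3 and 5 days and close to its 3-month level on those of 1 to 2 years (medians 6.50, 6.85, 6.60, 13.25 and 13.41 from the youngest age to the oldest). The other 2 probe sets paired with cyp19a1b had changes of 0.96 and 0.79, far smaller.

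s100b, a calcium-binding protein of glia, was 7.15 to 8.99 (median 8.65) at 10 days and 12.05 to 12.72 (median 12.38) at 3 months (3.91 ± 0.26, adjusted p = 9.52e-20). fabp7a, a brain fatty acid-binding protein of radial glia, was 8.80 to 11 (median 9.84) at 10 days and 12.96 to 13.49 (median 13.26) at 3 months (3.37 ± 0.27, adjusted p = 4.08e-16). igfbp2a, which binds insulin-like growth factors, rose by 2.58 ± 0.34, and slc1a2b, the glial glutamate transporter, by 1.31 ± 0.22. The call of slc1a2b was lost without scaling between arrays and with median centring. The ages did not overlap for any of these 4 genes, though s100b and fabp7a were chosen that way. The 1 astroglial gene that fell was apoeb, an apolipoprotein also made by microglia (-1.15 ± 0.26); its groups overlapped, and the call was lost with median centring and without the arrays of GAPDH ratio above 3. fabp7a and igfbp2a were lowest at 10 days among the 5 ages, with medians of 13.11, 11.94, 9.84, 13.26 and 13.31 for fabp7a and 9.55, 8.90, 6.70, 9.22 and 9.27 for igfbp2a from 3 days to 1 to 2 years.

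Of 14 genes of the oligodendrocyte and myelin list, 3 rose and 2 fell, with a median change of 0.57. mbpa, myelin basic protein, was 11.71 to 12.66 (median 12.46) at 10 days and 14.25 to 14.77 (median 14.59) at 3 months (2.28 ± 0.43, adjusted p = 2.98e-05). cldnk, a claudin of myelinating glia, rose by 1.97 ± 0.32, and cd59a, a membrane protein abundant in fish oligodendrocytes, by 2.27 ± 0.46. On each of these 3 genes the lowest 3-month array was above the highest 10-day array. pmp22a and pmp22b, relatives of a protein of peripheral myelin that other tissues also make, fell by 1.58 and 1.12 on the log2 scale, and with a constant of 64 the call of pmp22b was lost. Its second probe set changed by -0.28.

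**Figure D2:**
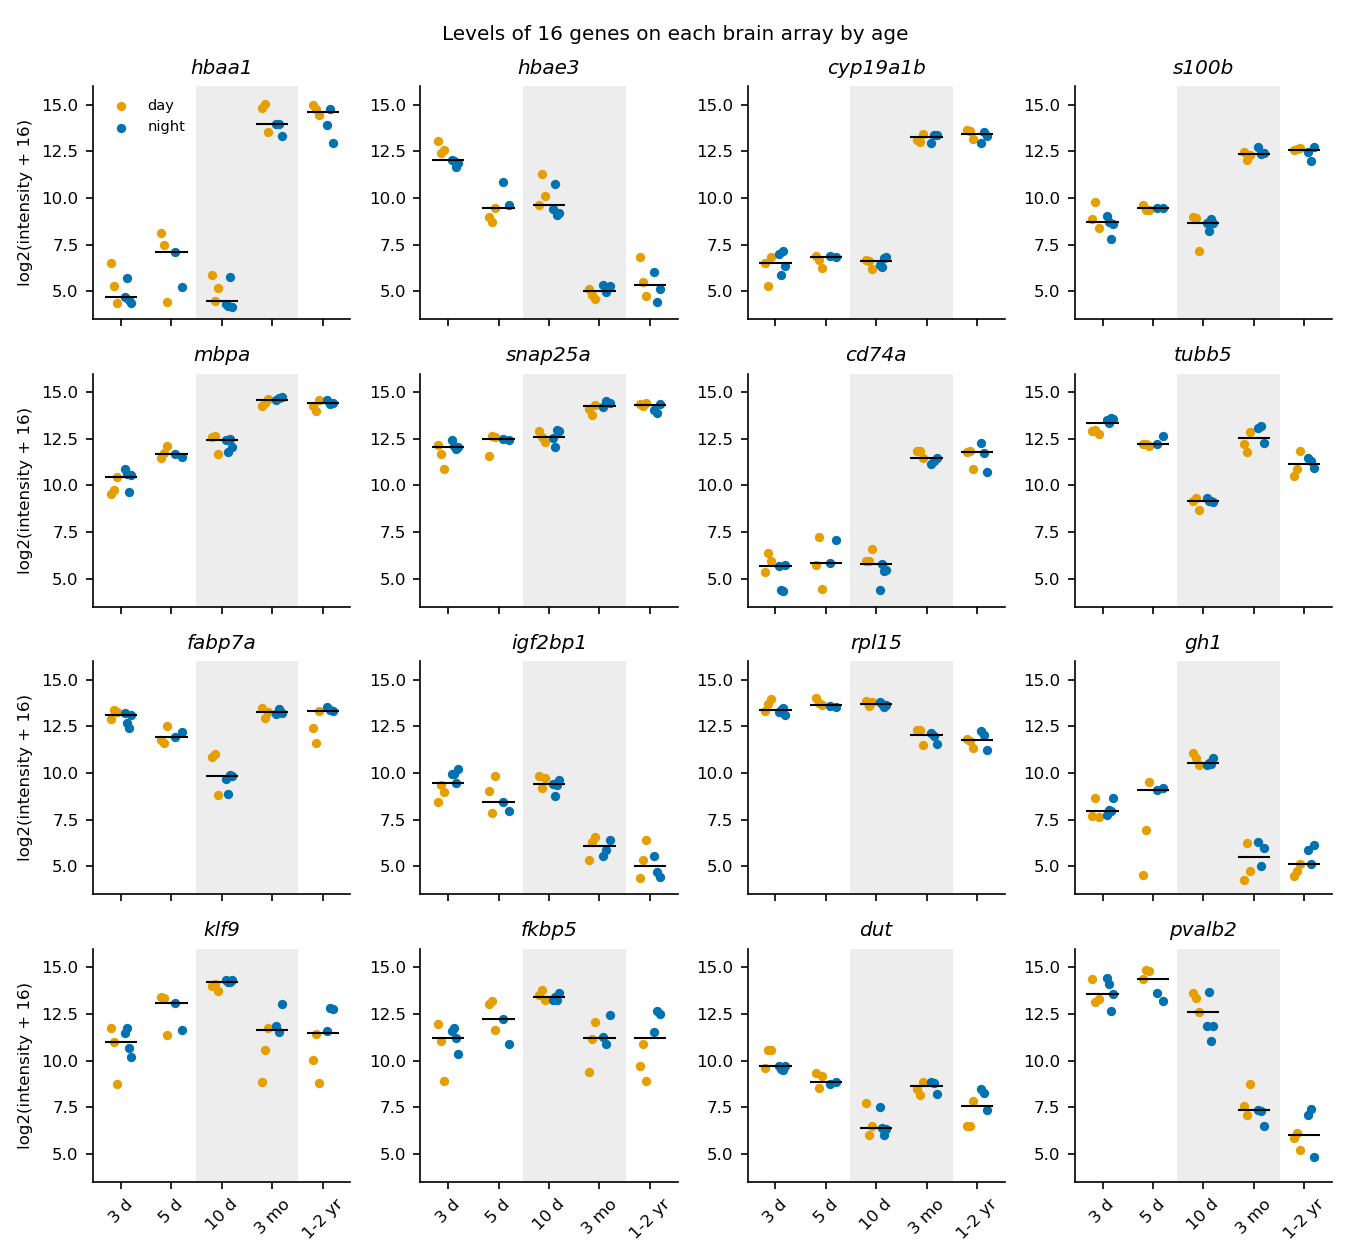
Level, log2(intensity + 16), of 16 genes on each brain array at 5 ages (orange, day; blue, night; black line, median of the age), with the 2 ages compared shaded. The shaded ages do not overlap for any of the 16 genes. For hbaa1, hbae3, cyp19a1b, s100b, cd74a, tubb5, fabp7a, gh1 and pvalb2 this was a condition of their choice. Over all genes, 9.79% were higher and 8.7% lower on every 3-month array than on every 10-day array. The genes hbaa1, s100b, tubb5, fabp7a and dut have their lowest medians at 10 days.

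Of 33 genes of synaptic vesicles and transmitter release, 9 rose and 0 fell, with a median change of 0.67, though the count was 5 without scaling between arrays. snap25a, a part of the machinery that fuses vesicles with the membrane, was 12.06 to 12.97 (median 12.60) at 10 days and 13.78 to 14.53 (median 14.27) at 3 months (1.61 ± 0.32, adjusted p = 7.11e-05). nrgna, a neurogranin that binds calmodulin in dendrites, rose by 2.17 ± 0.35, syn1, a synapsin of vesicles, by 1.64 ± 0.23, and vamp1a, a vesicle partner of snap25, by 1.60 ± 0.27. Summed over the list, intensity was 88210 to 113809 on the 10-day arrays and 152437 to 166952 on the 3-month arrays, which do not overlap. Transmitter receptors and ion channels gave few calls, 1 of 29 and 1 of 18 higher and 0 lower, against 7.0% over all genes. Their median changes were 0.53 and 0.08. Of single genes, 3 of the 29 receptors and 1 of the 18 channels were higher on every 3-month array than on every 10-day array, against 9.79% of all genes. Their summed intensities did not overlap between the ages either. All summed intensities use the deposited values, not the normalised levels, and weigh bright genes most. Receptor sums were 5235 to 7341 at 10 days and 9230 to 10659 at 3 months. Channel sums were 5196 to 6461 at 10 days and 6849 to 8980 at 3 months. Receptors gave 3 higher when brain arrays or the 13 arrays were fitted alone. The ion channel was kcnh2a, a potassium channel (1.07 ± 0.23, adjusted p = 0.000288).

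Of 43 cytoskeletal and other genes of growing neurites, 15 rose and 3 fell, with a median change of 0.40. tubb5, a beta-tubulin of developing neurons, was 8.70 to 9.35 (median 9.17) at 10 days and 11.80 to 13.18 (median 12.57) at 3 months (3.44 ± 0.36, adjusted p = 1.05e-11), and its other probe set changed by 2.97. tubb2, another beta-tubulin, was 8.01 to 9.63 (median 9.42) at 10 days and 11.34 to 12.76 (median 12.17) at 3 months (3.05 ± 0.37, adjusted p = 1.08e-09). Both tubulins were separated by more than a log2 unit between the highest 10-day and the lowest 3-month array, though both were chosen among genes without an overlap. tmsb2, a beta-thymosin that binds actin, rose by 2.71 ± 0.34, dpysl5a, of a family that guides growth cones, by 2.03 ± 0.27, and cntn1b, an axonal adhesion molecule, by 1.80 ± 0.25. gap43 and stmn2a, markers of growing axons, were also called higher. Those that fell were cfl1l, a cofilin-like gene (-2.44 ± 0.35), prph, an intermediate filament of peripheral and some central neurons (-1.89 ± 0.41), and dpysl5b (-1.04 ± 0.26), whose call was lost with other scalings and without day replicate 3 of the 10-day or day replicate 1 of the 3-month group; 2 other probe sets of prph moved upward without being called (0.99 and 0.69).

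Transcription factors of neuronal differentiation moved both ways, 3 of 42 higher and 5 lower, against 7.0% and 7.47% over all genes. neurod1, which drives neuronal differentiation, was 8.71 to 9.81 (median 9.65) at 10 days and 10.57 to 11.34 (median 10.99) at 3 months (1.55 ± 0.23, adjusted p = 2.25e-07); bhlhe22 and neurod6a, related factors of forebrain and other projection neurons in mammals, rose by 1.62 ± 0.35 and 1.48 ± 0.39. The factors called lower (myt1a, lhx5, isl2a, dlx4a and dlx3b) changed by -1.02 to -1.47, and all 5 lost the call with a constant of 64. Without day replicate 3 or night replicate 2 of the 3-month group the list had 2 lower. Neural progenitor and Notch pathway genes gave 2 calls of 42, both higher: zic2a (1.19 ± 0.27) and zic2b (1.12 ± 0.29; not called with a constant of 64 or without day replicate 2 of the 10-day group), zinc finger factors of the dorsal neural tube. Second probe sets of zic2a and zic2b changed by 0.77 and 0.60 without a call. Without the arrays of GAPDH ratio above 3 the progenitor list had 4 higher. A list drawn up for calcium-binding proteins of neurons gave 10 of 29 higher and 3 lower. The 10 include the glial s100b and aldoca, an aldolase, which other lists also hold. Among those higher were the calmodulins calm3a (1.37 ± 0.23) and calm3b, whose call was lost with both other scalings, without the arrays of GAPDH ratio above 3 and without night replicate 2 of the 10-day group. Others were pcp4l1, a relative of a calmodulin-binding Purkinje cell peptide (2.01 ± 0.40), and ca8, a carbonic anhydrase-related protein of Purkinje cells in mammals (1.88 ± 0.42, with a second probe set at 0.14); without the arrays of GAPDH ratio above 3 the list had 6 higher. The 3 lower ones were parvalbumins: pvalb8 was 9.0 to 10.68 (median 10.14) at 10 days and 6.26 to 6.75 (median 6.51) at 3 months (-3.51 ± 0.31, adjusted p = 1.27e-14), pvalb9 changed by -2.91 ± 0.49 and pvalb5 by -5.0 ± 0.90, with 1 array of 3-month brain, day replicate 3, at 11.63 in the range of the 10-day arrays.

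Of 89 genes of the respiratory chain and ATP synthase, 30 rose and 0 fell, with a median change of 0.75. atp5mc1, a subunit of the ATP synthase rotor, was 9.12 to 10.44 (median 10.14) at 10 days and 11.44 to 12.65 (median 11.95) at 3 months (1.95 ± 0.22, adjusted p = 1.76e-10). cox7b, of cytochrome oxidase, rose by 1.43 ± 0.15, and ndufb5, ndufc2 and ndufa4b, whose names place them with complex I, by 1.48 ± 0.18, 1.88 ± 0.25 and 1.86 ± 0.23. For all 5 genes the ages did not overlap, and the count of the list ranged from 22 to 39 higher and stayed at 0 lower over the 24 alternatives.

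Of 54 genes of glycolysis and the tricarboxylic acid cycle, 17 rose and 3 fell (5 fell without scaling between arrays). hk1, the hexokinase of brain, was 10.06 to 10.53 (median 10.50) at 10 days and 11.93 to 12.10 (median 11.98) at 3 months (1.56 ± 0.22, adjusted p = 1.01e-07), and its other probe sets changed by 1.39 and 0.31. eno1b, an enolase, rose by 1.84 ± 0.25, pgam1b, a phosphoglycerate mutase, by 1.53 ± 0.19, idh3a, of the mitochondrial isocitrate dehydrogenase, by 1.88 ± 0.25 (0.71 on a second probe set), and gapdhs by 1.35 ± 0.18. Without scaling between arrays gapdhs changed by 0.96 and was not called. The 3 that fell were gapdh (9.82 to 12.38 (median 10.74) at 10 days and 7.10 to 8.0 (median 7.37) at 3 months; -3.45 ± 0.43), pck1, the rate-limiting enzyme of glucose synthesis in liver and kidney (-2.76 ± 0.50), and aldoab (-1.71 ± 0.49), an aldolase also in the muscle list.

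Proteasome subunits gave 9 of 41 higher and 0 lower (median 0.68), with examples psma4 (1.33 ± 0.24) and psmc4 (1.3 ± 0.24). The count ranged from 4 with a constant of 64 to 16 with median centring. Cholesterol and lipid genes gave 6 of 27 higher and 4 lower (3 higher with a constant of 64). fads2, a desaturase that makes long polyunsaturated fatty acids, was 5.59 to 7.23 (median 6.76) at 10 days and 10.21 to 10.90 (median 10.53) at 3 months (3.85 ± 0.33, adjusted p = 6.13e-15), and the sterol genes hmgcs1 and insig1 rose by 2.06 ± 0.39 and 1.66 ± 0.26. lpla, a lipoprotein lipase, was 10.06 to 10.65 (median 10.49) at 10 days and 6.65 to 7.21 (median 6.95) at 3 months (-3.48 ± 0.28, adjusted p = 4.96e-16), and fabp10a, the fatty acid-binding protein of liver, fell by 2.73 on the log2 scale. lpla had its highest median at 10 days among the 5 ages (7.49, 7.94, 10.49, 6.95 and 7.02 from 3 days to 1 to 2 years).

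Of 36 antigen presentation genes, 9 rose and 3 fell. cd74a, the invariant chain that escorts class II molecules, was 4.39 to 6.62 (median 5.77) at 10 days and 11.15 to 11.87 (median 11.47) at 3 months (5.81 ± 0.36, adjusted p = 4.79e-21), with a change of 4.85 at a constant of 64 and 6.43 at a constant of 1. Its paralogue cd74b was 4.38 to 6.60 (median 5.54) at 10 days and 8.63 to 9.25 (median 8.97) at 3 months (3.46 ± 0.39, adjusted p = 1.39e-10). tapbp.1, which helps to load class I molecules, rose by 2.82 ± 0.41 (1.05 to 1.94 on its other probe sets), and b2m, the shared light chain of class I, by 2.28 ± 0.37. None of these 4 genes had an overlap between the ages, though cd74a and cd74b were chosen that way. The 3 that fell were suppressors of cytokine signalling, socs1a (-2.04 ± 0.37), socs3b (-1.58 ± 0.30) and socs3a (-2.21 ± 0.45).

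Genes of microglia, macrophages and other leukocytes split evenly, 7 of 40 higher and 7 lower. Higher were the galectin lgals2a (2.25 ± 0.26), lgals3bp.1 (2.92 ± 0.41), the chemokine ccl34b.1 (1.45 ± 0.26), the progranulin grna (1.78 ± 0.43) and spi1b, a transcription factor of myeloid cells (1.42 ± 0.35, with a second probe set at 0.65). Lower were mpx, the peroxidase of neutrophils (7.93 to 10.41 (median 9.08) at 10 days and 4.88 to 6.27 (median 5.17) at 3 months; -3.62 ± 0.41, adjusted p = 1.6e-10), coro1a, a coronin of leukocytes (-2.74 ± 0.47), the cathepsin ctsl.1 (-1.83 ± 0.41) and the collagenase mmp13a (-2.89 ± 0.65). The 3 other probe sets of mpx changed by -0.51, -1.15 and -0.07, and the second probe set of coro1a by 0.56. Complement and acute-phase genes likewise gave 4 of 33 higher and 5 lower (2 higher with a constant of 64, 9 lower with array weights, 3 lower without day replicate 3 of the 10-day group): cp, the copper-carrying ceruloplasmin, was 5.64 to 6.76 (median 6.11) at 10 days and 9.76 to 10.97 (median 10.41) at 3 months (4.21 ± 0.45, adjusted p = 2.46e-11), while plg, plasminogen, and apoa1a, the main apolipoprotein of high-density lipoprotein, fell by 2.53 and 2.68 on the log2 scale. A second probe set of plg changed by -0.34.

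Of 81 ribosomal protein genes, 38 fell and 0 rose, against 7.47% and 7.0% over all genes. The median change was -0.98. For 61 of the 81 every 3-month array was below every 10-day array, against 8.7% of all genes. rpl15 was 13.52 to 13.84 (median 13.68) at 10 days and 11.48 to 12.33 (median 12.05) at 3 months (-1.74 ± 0.14, adjusted p = 1.55e-15). rplp2b, of the ribosomal stalk, fell by 1.79 on the log2 scale, rps15 by 1.46, rpl13 by 1.40 and faua, whose protein carries a small-subunit ribosomal protein, by 1.31. The count depended on scaling, with 68 called lower without scaling between arrays and 58 with median centring, and 0 higher in both. igf2bp1, an RNA-binding protein of fetal tissues in mammals that was picked after its value was seen, was 8.79 to 9.86 (median 9.43) at 10 days and 5.33 to 6.60 (median 6.1) at 3 months (-3.43 ± 0.35, adjusted p = 5.47e-12), and its other probe set changed by -2.07.

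Splicing and RNA-binding genes, by contrast, gave 1 of 101 higher and 3 lower, against 7.0% and 7.47% over all genes. The counts were 4 and 1 with median centring, and 2 and 6 without the arrays of GAPDH ratio above 3. The 3 were srsf7a (-1.5 ± 0.31), hnrnpk (-1.20 ± 0.15) and srsf6b (-1.08 ± 0.17), of which hnrnpk and srsf6b were not called with median centring, nor was srsf6b without day replicate 3 of the 3-month group. Histone and chromatin genes gave 5 of 53 higher and 6 lower (3 lower with median centring). h1-10, a linker histone, changed by -1.82 ± 0.27 and npm1a, a nucleolar chaperone, by -1.35 ± 0.22 (-0.23 on a second probe set), whereas cbx1b, a heterochromatin protein, rose by 1.91 ± 0.32. Chaperone and stress genes gave 5 of 70 in each direction, with gpx1a, a glutathione peroxidase (1.75 ± 0.33), among the rises and sqstm1, a receptor of autophagy (-1.51 ± 0.25), among the falls.

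Of 70 muscle genes, 36 fell and 0 rose, with a median change of -1.32. atp2a1l, of the family of the muscle calcium pump, was 10.20 to 12.03 (median 11.21) at 10 days and 4.91 to 6.72 (median 5.61) at 3 months (-5.51 ± 0.46, adjusted p = 3.96e-15). pvalb2, a parvalbumin of fast muscle, was 11.05 to 13.67 (median 12.61) at 10 days and 6.49 to 8.74 (median 7.32) at 3 months (-5.23 ± 0.59, adjusted p = 1.32e-10). mylpfa, a fast myosin light chain, fell by 4.94, and ckma, muscle creatine kinase, by 3.86 on the log2 scale. Summed over the 70 genes, intensity was 28456 to 108176 on the 10-day arrays and 10583 to 12775 on the 3-month arrays. Night replicate 2 was highest at 10 days, and the spread among the 10-day arrays was far wider than that among the 3-month arrays.

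Of 50 skin and keratin genes, 30 fell and 1 rose, with a median change of -1.3. krt17, a keratin, was 9.03 to 11.72 (median 10.41) at 10 days and 6.55 to 7.81 (median 7.22) at 3 months (-3.11 ± 0.36, adjusted p = 3.77e-10), epcam, an adhesion molecule of epithelia, changed by -2.95 ± 0.40 (-1.12 on a second probe set), and krt91 by -2.92 ± 0.31. Their summed intensity was 27185 to 75081 at 10 days and 9833 to 21833 at 3 months, again without an overlap. Cartilage, bone and connective tissue genes gave 9 of 56 lower and 3 higher (1 higher with a constant of 64 or without night replicate 2 of the 3-month group). col2a1a, the collagen of cartilage, was 7.54 to 10.69 (median 8.51) at 10 days and 5.69 to 7.28 (median 6.37) at 3 months (-2.50 ± 0.37, adjusted p = 2.61e-07), and its medians at 3 and 5 days, 14.22 and 13.49, were far above both. The sum of that list at 10 days, 9361 to 19080, overlapped with that at 3 months, 9415 to 10746. How much tissue from outside the brain the samples held was not tested.

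Enzymes of the exocrine pancreas were noticed after their values were seen. Of 11 such genes, 10 were called lower and 0 higher, with a median change of -2.31. The list was drawn up after that, so its counts, median and sums describe the chosen genes and are not independent evidence of a direction. With dim probe sets left out 6 were lower. prss1, a trypsin, was 7.19 to 11.31 (median 10.63) at 10 days and 4.38 to 7.11 (median 5.84) at 3 months (-4.13 ± 0.60, adjusted p = 1.08e-07). Day replicates 1 and 3 of the 10-day group, at 7.19 and 8.17, were far below the other 5 arrays, which were 10.54 to 11.31. The chymotrypsin gene ctrb.1 (-3.30 ± 0.55), the elastase ela2l (-3.25 ± 0.49) and the amylase amy2a (-1.73 ± 0.43) also fell. Their summed intensity was 557.5 to 7531 at 10 days and 210.6 to 487.7 at 3 months.

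**Figure D3:**
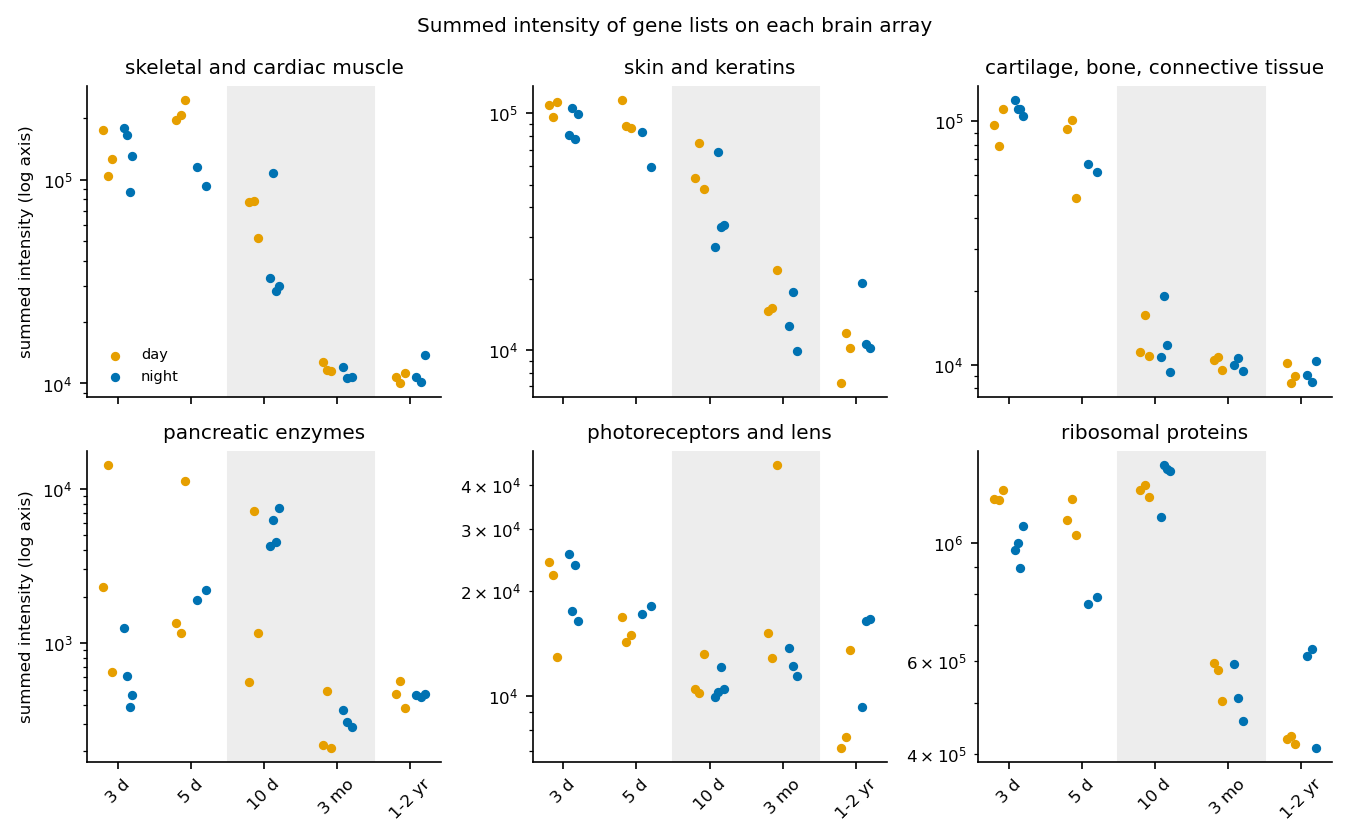
Summed intensity (log axis) of 6 gene lists on each brain array at 5 ages (orange, day; blue, night), with the 2 ages compared shaded. Muscle sums are 28456 to 108176 at 10 days and 10583 to 12775 at 3 months, pancreatic enzymes vary more than 10-fold among the 10-day arrays, and day replicate 3 at 3 months is alone at 45464 for photoreceptors and lens.

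Photoreceptor and lens genes gave 4 of 57 higher and 0 lower, against 7.0% and 7.47% over all genes. gnat1, the rod transducin, was 4.67 to 5.86 (median 5.10) at 10 days and 6.04 to 9.94 (median 7.02) at 3 months (2.11 ± 0.41, adjusted p = 5.82e-05), though its second probe set changed by -0.02, and gngt1 rose by 2.62 ± 0.38. The summed intensity of the list was 9960 to 13233 at 10 days and 11401 to 15151 on 5 of the 3-month arrays, but 45464 on day replicate 3. Without that array 2 genes of the list were higher and 2 lower. The calls of opn1mw2, a green cone opsin, and rbp3, a retinoid carrier of the eye, were then lost. Without day replicate 1 of the 3-month group 7 were higher. Leaving out the arrays of GAPDH ratio above 3 keeps only day replicate 3 of the 3-month day group, so that alternative decides nothing for this list. Pigment cell genes gave 0 calls among 18 by limma, with 2 at an unadjusted p under 0.05, and endothelial and blood-brain barrier genes 1 of 25 higher and 2 lower, shares near or below the background.

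Of 46 genes in a list drawn up for hormones and neuropeptides, 8 rose and 5 fell. The 8 include mao, a monoamine oxidase, which is an enzyme and not a peptide. Its other probe sets changed by -0.86, 0.13 and 0.27 without a call. gh1, growth hormone, was 10.41 to 11.07 (median 10.52) at 10 days and 4.29 to 6.31 (median 5.51) at 3 months (-5.22 ± 0.46, adjusted p = 2.07e-14). prl, prolactin, was 7.29 to 8.41 (median 7.65) at 10 days and 4.39 to 6.2 (median 4.94) at 3 months (-2.68 ± 0.41, adjusted p = 5.12e-07), and pomca, the precursor of ACTH and melanocyte-stimulating hormone, changed by -1.55 ± 0.44. Its call was lost with a constant of 1 and without the arrays of GAPDH ratio above 3. gh1 and prl were separated between the ages on every array, though gh1 was chosen that way. tshba, the thyrotropin beta chain, changed by -1.26 ± 0.45, with overlapping groups and a call lost when any of several arrays was left out. cga, the alpha chain shared by glycoprotein hormones, was not called (-0.33 ± 0.36). Among the other peptides, oxt, the fish oxytocin, was 6.34 to 7.56 (median 6.67) at 10 days and 9.69 to 11.14 (median 10.39) at 3 months (3.62 ± 0.57, adjusted p = 8.89e-07), while avp, vasopressin, differed by -0.06 ± 0.49 without a call. penkb, a proenkephalin, rose by 1.79 ± 0.39, chga, a granin of secretory granules, by 1.97 ± 0.49, nppcl, of the natriuretic peptide family, by 2.0 ± 0.30, and adcyap1b, a PACAP precursor, by 1.59 ± 0.44, whereas pmchl, of the melanin-concentrating hormone family, changed by -2.64 ± 0.50.

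Of 45 immediate-early and stress-induced genes, 17 fell and 0 rose, with a median change of -0.76. cebpd, a transcription factor induced by cytokines and glucocorticoids, was 10.89 to 11.61 (median 11.23) at 10 days and 6.85 to 8.11 (median 7.68) at 3 months (-3.63 ± 0.38, adjusted p = 7.82e-12), although its second probe set changed by 0.14. klf9, a factor induced by thyroid hormone and glucocorticoids, was 13.74 to 14.32 (median 14.20) at 10 days and 8.85 to 13.01 (median 11.65) at 3 months (-2.84 ± 0.45, adjusted p = 8.16e-07). atf3, induced by stress, changed by -2.74 ± 0.36, mych, of the Myc family, by -3.22 ± 0.35, and pim3, a kinase, by -1.88 ± 0.26. Each of these 5 genes was separated between the ages and had its highest median at 10 days among the 5 ages.

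Some further genes with large falls were picked after their values were seen, so they stand for themselves and not for a pathway. fkbp5, a co-chaperone of the glucocorticoid receptor, was 13.23 to 13.80 (median 13.40) at 10 days and 9.41 to 12.42 (median 11.22) at 3 months (-2.25 ± 0.41, adjusted p = 1.95e-05). igfbp1b, which binds insulin-like growth factors and rises in fasted fish, was 9.04 to 9.63 (median 9.49) at 10 days and 4.82 to 6.05 (median 5.31) at 3 months (-4.09 ± 0.43, adjusted p = 9.47e-12), and ucp2, a mitochondrial uncoupling protein, was 10.49 to 12.36 (median 11.63) at 10 days and 7.0 to 7.87 (median 7.48) at 3 months (-4.09 ± 0.30, adjusted p = 1.15e-17). All 3 were higher on every 10-day array than on any 3-month array, though igfbp1b and ucp2 were chosen that way. pdk2b, which restrains pyruvate dehydrogenase, changed by -3.47 ± 0.45, tat, tyrosine aminotransferase, by -3.80 ± 0.42, and the muscle ubiquitin ligases trim63a and fbxo32 by -4.79 ± 0.43 and -1.43 ± 0.42. tsc22d3, another glucocorticoid-induced gene, differed by -0.96 ± 0.21, short of 2-fold, and sgk1, a kinase with the same kind of control, by -0.05 ± 0.22.

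Clock and light-responsive genes gave 11 of 37 lower and 3 higher. ddb2, a DNA repair gene induced by light in zebrafish, was 10.11 to 10.91 (median 10.28) at 10 days and 7.54 to 8.27 (median 7.70) at 3 months (-2.69 ± 0.22, adjusted p = 1.14e-15). cry2, a cryptochrome, changed by -1.80 ± 0.24, cry-dash by -2.23 ± 0.29 (-1.05 on a second probe set) and tefa, a factor that relays clock and light signals, by -1.28 ± 0.17; per2 was also lower. hif1al2 (2.18 ± 0.37) was higher, and so were bmal1a and rorcb, whose calls were lost with a constant of 64.

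The change from 10 days to 3 months was also taken by day and by night alone. By day 370 genes were higher and 458 lower (4.21% and 5.22%), and by night 487 and 506 (5.55% and 5.76%), from 3 against 3 and 3 against 4 arrays; both use arrays of the main comparison. Over probe sets the day split was 537 higher and 651 lower (3.46% and 4.2%, together 7.66%), and with median centring 731 and 556. By night 1476 were called (9.52%). The night-day difference was called on 2 probe sets (0.0129%). 1 called gene had opposite signs by day and by night. The difference of the change between night and day passed an adjusted p under 0.05 for 2 genes, 0.0228% of those tested, while 270 genes (3.07%) had an unadjusted p under 0.05. ciarta, a clock repressor that cycles over the day, was 12.47, 12.10 and 12.76 by day and 13.08, 13.06, 12.77 and 12.95 by night at 10 days. At 3 months it was 8.11, 7.85 and 8.36 by day and 11.60, 11.55 and 12.23 by night. Day and night levels were thus close at 10 days and far apart at 3 months: the change was -4.34 by day and -1.17 by night, a difference of 3.17 ± 0.52 (adjusted p = 0.000906).

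gnb3b, a transducin beta subunit of cones, was the other. Its levels at 3 months were 7.82, 8.75 and 10.75 by day, with the third array highest, and 5.92, 5.04 and 5.03 by night, against 4.85 to 7.12 at 10 days; the difference was -3.96 ± 0.80 (adjusted p = 0.0483). That difference was called in 12 of 24 alternatives, and that of ciarta in all 24. Without day replicate 3 of the 3-month group the difference of gnb3b was not called (limma, adjusted p = 0.429).

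Of 42 Hox genes, 8 were lower and 0 higher, and of 93 other regional homeobox and patterning factors, 12 were lower and 1 higher. hoxb3a, a gene of the hindbrain, was 7.55 to 8.73 (median 8.09) at 10 days and 4.24 to 6.28 (median 5.23) at 3 months (-2.87 ± 0.37, adjusted p = 6.98e-09), and hoxa2b and hoxd4a changed by -2.40 ± 0.41 and -1.88 ± 0.42. The Hox count was 4 without day replicate 3 of the 3-month group, 5 without night replicate 1 or night replicate 2 of that group, 5 with a constant of 1, 3 with a constant of 64 and 1 with dim probe sets left out. meis1b, a cofactor of Hox proteins, changed by -1.37 ± 0.19, meis1a by -2.60 ± 0.39 (-0.70 on a second probe set), meis2b by -2.0 ± 0.32, foxp1a, a forkhead factor of neurons, by -2.03 ± 0.22, and pou3f2b, a POU factor of neural precursors, by -1.23 ± 0.21. Each of the 5 was lower on every 3-month array than on any 10-day array.

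Signalling genes of the Wnt, Fgf, Bmp and Hedgehog pathways gave 4 of 101 in each direction, below the background (7 lower without scaling between arrays, 2 higher with a constant of 64). crabp1a, a retinoic acid-binding protein, was 6.04 to 8.29 (median 7.60) at 10 days and 9.48 to 10.23 (median 9.89) at 3 months (2.62 ± 0.35, adjusted p = 1.14e-08), fzd10 rose by 1.38 ± 0.23, and fzd7b, another Wnt receptor, changed by -2.41 ± 0.27, though its second probe set changed by -0.19. Axon guidance genes gave 2 of 40 in each direction, with 1 higher without scaling, with median centring or without any 1 of day replicates 1 and 3 and night replicates 1 and 2 of the 3-month group, and 0 lower with a constant of 64, array weights or without the arrays of GAPDH ratio above 3. epha6, an ephrin receptor, rose by 1.65 ± 0.34. Thyroid hormone genes gave 1 of 12 in each direction, klf9 lower and the receptor thrb higher (1.31 ± 0.40). thrb was not called without day replicate 3 of the 3-month group, and its other probe sets changed by 0.77 to 0.92 without a call.

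Cell cycle and DNA replication genes gave 7 of 70 higher and 1 lower, against 7.0% and 7.47% over all genes. Their median change was 0.16, and -0.02 without scaling between arrays. dut, which keeps uracil out of DNA, was 5.99 to 7.73 (median 6.41) at 10 days and 8.17 to 8.85 (median 8.62) at 3 months (1.90 ± 0.30, adjusted p = 8.06e-07), and fen1, which trims replicated strands, rose by 1.35 ± 0.32. Both were higher on every 3-month array than on any 10-day array. tyms, thymidylate synthase, rose by 1.35 ± 0.39, and with a constant of 64 its call was lost and the list gave 2 higher. The count was 4 without scaling between arrays, with median centring and without day replicate 3 of the 10-day group. Summed over the list, intensity was 32247 to 56083 at 3 days, 11864 to 14672 at 10 days and 12570 to 15533 at 3 months, so that the ages compared overlapped.

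The same question can be put to other arrays: brain of 1 to 2 years (6 arrays) was set against brain of 3 and 5 days (12 arrays), none of which enters the comparison above. There 641 genes were higher and 913 lower (7.3% and 10.4%), and over probe sets 2404 were called (15.5%). Some of these arrays had a high GAPDH 3′/5′ ratio. Day replicates 1 and 2 of 1 to 2 years had 13.85 and 17.20. Day replicate 1 of 3 days had 6.09 and day replicate 2 of 5 days had 5.69. Without the arrays of GAPDH ratio above 3, day replicate 3 is the only day array left at 1 to 2 years. A count without them would rest on that array by day and is not given. Of the 615 genes that rose from 10 days to 3 months, 234 were also higher at 1 to 2 years than at 3 and 5 days (38.05% of the first list and 36.51% of the second), and 18 were lower. Of the 656 that fell, 361 were also lower (55.03% and 39.54%) and 4 were higher. cyp19a1b, for example, changed by 6.79 ± 0.39, adjusted p = 8.16e-23, hbaa1 by 8.53 ± 0.43, adjusted p = 8.47e-26, and mbpa by 3.42 ± 0.39, adjusted p = 5.88e-11 in the older against the younger brains. Ribosomal proteins gave 36 of 81 lower and 0 higher there, muscle genes 56 of 70 lower and 0 higher, and synaptic genes 17 of 33 higher and 0 lower. Respiratory chain genes gave only 7 of 89 higher and proteasome genes 4 of 41, both with 0 lower, against 7.3% higher over all genes. From the youngest age to the oldest, median summed intensity was 157197, 139598, 114741, 195862 and 216200 for the respiratory chain list. For the proteasome list it was 44827, 25499, 20408, 34473 and 36127, so both were lowest at 10 days.

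Where the changes differed was tested directly, as the change from 10 days to 3 months minus the change from 3 and 5 days to 1 to 2 years; this test was chosen after the data were seen. 463 genes had the more positive change from 10 days to 3 months and 275 the more negative one (5.27% and 3.13%). Over probe sets 1104 differed (7.12%). Cell cycle genes gave 30 of 70 in the positive direction and 0 in the negative: in the older comparison 34 of them were lower and 0 higher. dut, for instance, rose from 10 days to 3 months but changed by -1.94 ± 0.27, adjusted p = 2.42e-08 in the other comparison, a difference of 3.85 ± 0.40, adjusted p = 5.36e-11. Its medians from 3 days to 1 to 2 years were 9.71, 8.85, 6.41, 8.62 and 7.58. tubb5 showed the same course, with medians of 13.34, 12.24, 9.17, 12.57 and 11.14, and a difference of 5.02 ± 0.49, adjusted p = 3.25e-12. For both genes 10 days was the lowest of the 5 ages.

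Immediate-early and stress-induced genes differed the other way, 22 of 45 in the negative direction and 1 in the positive. atf3 had medians of 7.91, 8.37, 10.91, 8.13 and 8.35 from 3 days to 1 to 2 years, and klf9 of 10.99, 13.07, 14.20, 11.65 and 11.50, both highest at 10 days. klf9 changed by -0.41 ± 0.40, adjusted p = 0.5048 in the older against the younger brains, and the difference was -2.43 ± 0.60, adjusted p = 0.00395. The summed intensity of the list was 77928 to 128233 at 10 days, above all arrays of the other 4 ages, whose highest was 53938. Clock and light-responsive genes gave 11 of 37 in the negative direction and 0 in the positive. Muscle, skin and cartilage genes gave 22 of 70, 11 of 50 and 25 of 56 in the positive direction and 0 in the negative, with larger falls from 3 and 5 days than from 10 days. Ribosomal protein and synaptic genes gave 0 calls in either direction by limma, with 17 of 81 and 7 of 33 at an unadjusted p under 0.05.

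**Figure D4:**
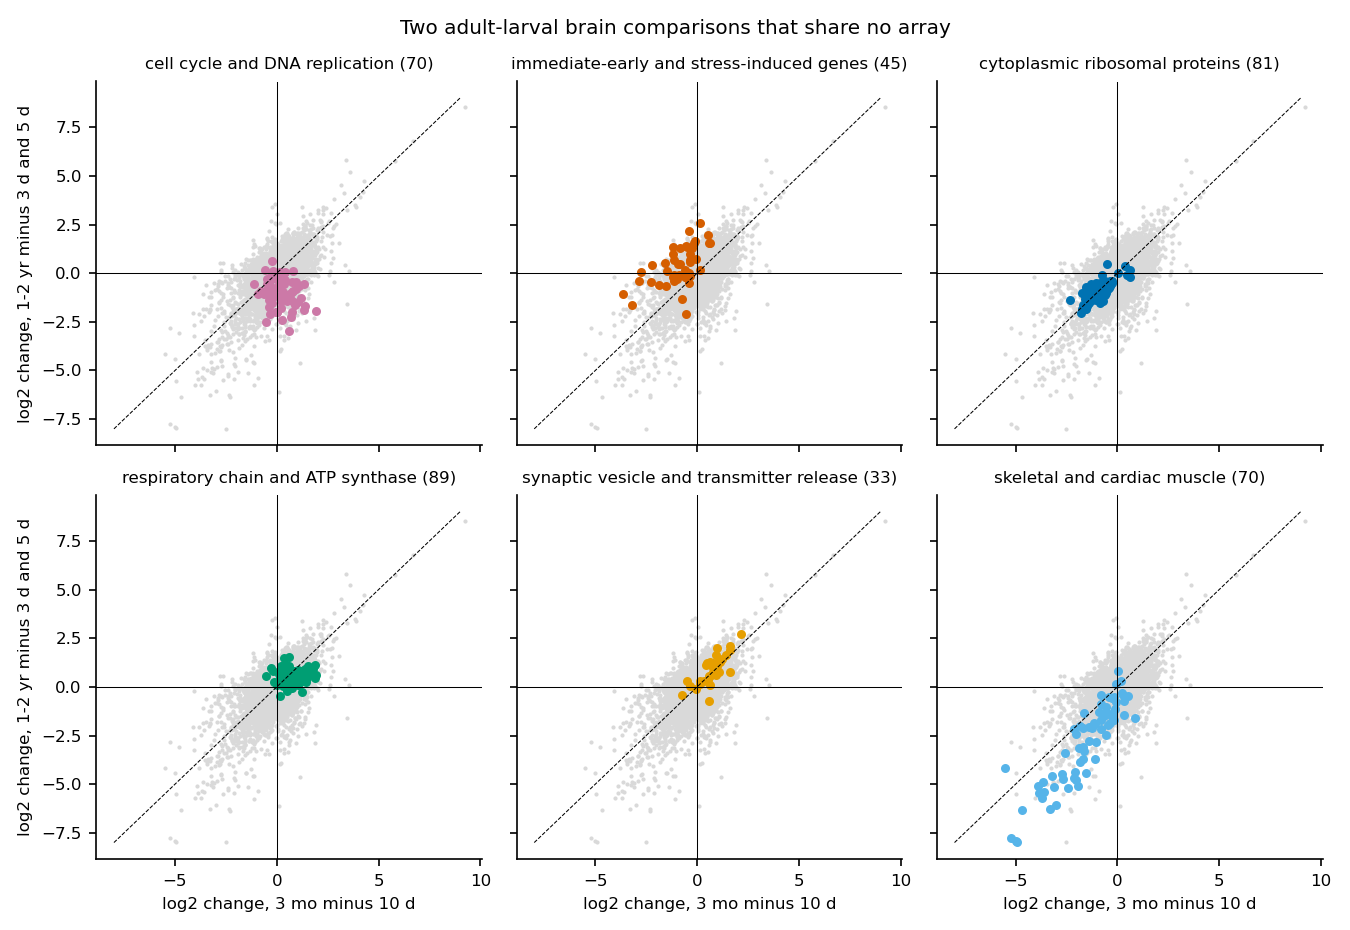
Log2 change of each gene from 10 days to 3 months (x axis) and from 3 and 5 days to 1 to 2 years (y axis), which share no array; all 8781 genes in grey, the members of 1 list coloured in each panel, and a dashed line where the changes are equal. The median cell cycle gene is at 0.16 on the x axis and -0.98 on the y axis, and the median immediate-early gene is at -0.76 and 0.15.

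The pineal gland of the same ages was used to ask which changes differed in brain. From 10 days to 3 months 1059 genes rose and 808 fell in the pineal gland (12.1% and 9.2%), on 14 arrays of which none is a brain array. Of the genes that rose in brain, 246 also rose in the pineal gland (40% of the brain list and 23.23% of the pineal list) and 25 fell. Of those that fell in brain, 173 also fell (26.37% and 21.41%) and 60 rose. The difference of the change, brain minus pineal, passed the test for 647 genes in the positive and 867 in the negative direction (7.37% and 9.87%). Its split moved with scaling: over probe sets 1257 were positive and 1439 negative (8.11% and 9.28%, together 17.4%), without scaling between arrays 831 and 2269, and with median centring 1769 and 1224.

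hbaa1 rose in both, by 9.22 ± 0.48 in brain and 9.08 ± 0.46 in the pineal gland (difference 0.14 ± 0.66, adjusted p = 0.9162), and cd74a by 5.81 ± 0.36 and 6.80 ± 0.34 (difference -0.99 ± 0.50, adjusted p = 0.1613). cyp19a1b rose more in brain, by 6.67 ± 0.44 against 4.08 ± 0.42 (difference 2.58 ± 0.61, adjusted p = 0.000934). The largest difference of a named gene was in muscle: pvalb1 changed by -5.0 ± 0.59 in brain and 3.08 ± 0.57 in the pineal gland, and 31 of 70 muscle genes and 37 of 50 skin genes were called in the negative direction of the difference with 0 in the positive (1 muscle gene with median centring). In the pineal gland 10 of 70 muscle genes rose and 2 fell, and 21 of 50 skin genes rose and 3 fell, against 12.1% and 9.2% over all genes. Neuronal genes lay on the other side, with oxt at 3.62 ± 0.57 in brain and -2.78 ± 0.55 in the pineal gland, neurod6a at 1.48 ± 0.39 and -3.0 ± 0.38, and gad2 at 0.44 ± 0.32 and -3.85 ± 0.31. Synaptic genes gave 18 of 33 in the positive direction and 1 in the negative, and microglial genes 17 of 40 in the negative direction and 0 in the positive.

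**Figure D5:**
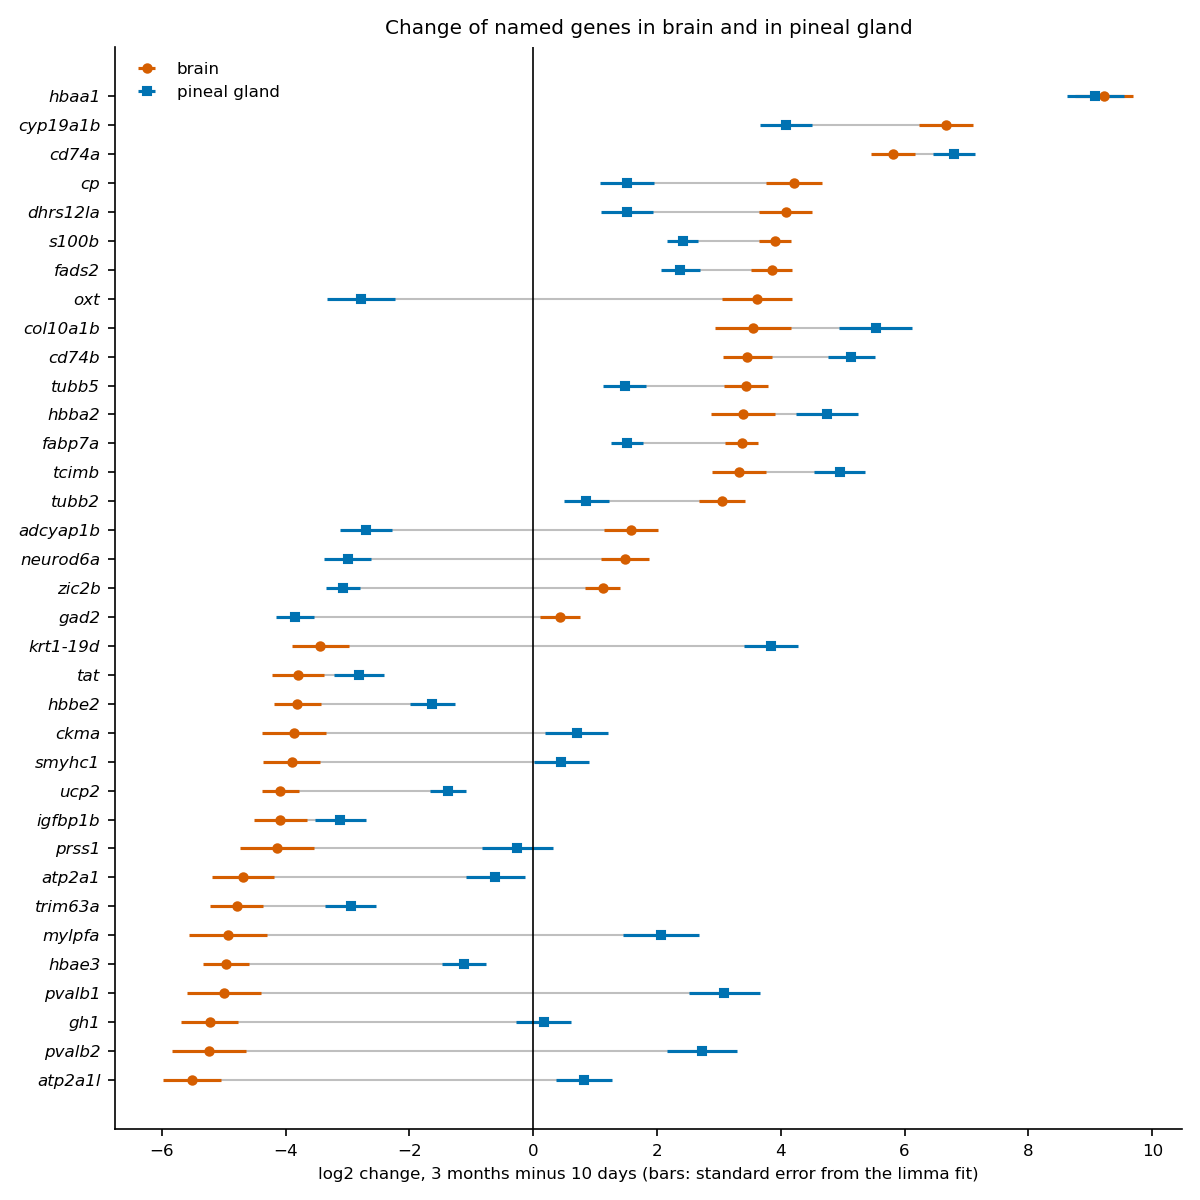
Log2 change from 10 days to 3 months (x axis) of the most changed genes and of those that differed most between the tissues, in brain (circles) and pineal gland (squares), with standard errors from the limma fit as bars and a grey line joining the tissues. hbaa1 and cd74a are close in both tissues, while pvalb1, chosen for the size of its difference, falls in brain and rises in the pineal gland. Of all 70 muscle genes, 10 rose and 2 fell in the pineal gland, against 12.1% and 9.2% over all genes.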

How the data were processed

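RNA of 69 samples of zebrafish brain and pineal gland was hybridised to 1-colour Affymetrix arrays. The authors deposited 1 linear intensity per probe set and array; how probes were summarised is not stated in the sources used. The 115 control probe sets were left out of the tests. Values were taken as log2(intensity + 16) and quantile normalised over the 69 arrays. A mean for each of the 20 groups was fitted with limma 3.58.1 (R 4.3.3; lmFit, contrasts.fit, eBayes with trend), with 49 residual degrees of freedom, on 15502 probe sets. Each gene was read from its probe set of highest mean; 10795 probe sets had 1 symbol, 135 several and 4572 none, which left 8781 genes. All tests were two-sided, with Benjamini-Hochberg adjustment over the probe sets, and the scripts were tested on simulated data.

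Genes were named by a rule among those with 1 symbol that is not a clone name; zgc:77614 is an exception. The rule took 15 genes in each direction by size of change, from those called with the same sign by day and night and no overlap between the ages. From each list it took up to 5 called genes in each direction by smallest adjusted p, or, for a list with no call, its 2 genes of highest mean. It also took the 5 largest called brain-pineal differences in each direction and the called night-day differences; genes outside it were chosen after their values were seen. The members, lists and comparisons were chosen with earlier results of these data known. The number of arrays limits the precision, and symbols come from an array annotation that can be old. No protein, promoter or probe sequences were used here.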

Additional observations from a re-analysis of the deposited data

Results flagged for a closer look

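Among the 4 night arrays of 10-day brain, 3 of 44 genes checked had 1 array far from the others. Night replicate 3 was highest for hbaa1, at 5.75 against 4.16 to 4.3, and lowest for tcimb, at 4.42 against 6.71 to 6.97. Night replicate 2 was lowest for tubb2, at 8.34 against 9.42 to 9.63. Chance picks out about 1 in 20 groups this way. All 3 genes were chosen among those without an overlap, so each of these arrays lay on its side of every 3-month array by that choice.

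Genes whose change from 10 days to 3 months differed between brain and pineal gland stood out on the test of the difference, brain minus pineal on the log2 scale. The difference was positive for oxt (6.40 ± 0.79), neurod6a (4.48 ± 0.55), adcyap1b (4.29 ± 0.61), gad2 (4.28 ± 0.45) and zic2b (4.19 ± 0.40), all of which were lower at 3 months than at 10 days in the pineal gland. It was negative for the muscle genes pvalb1 (-8.08 ± 0.83), pvalb2 (-7.96 ± 0.82), mylpfa (-7.00 ± 0.88) and atp2a1l (-6.33 ± 0.65) and for the keratin krt1-19d (-7.28 ± 0.64). The change also differed between night and day, night minus day, for ciarta (3.17) and gnb3b (-3.96). The call of gnb3b was kept in 12 of 24 alternatives and was lost without day replicate 3 of the 3-month group.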

How the results depend on the processing

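The change from 10 days to 3 months was called on 1968 probe sets (948 higher, 1020 lower), on 1280 with a constant of 64 (581 and 699), and on 1784 to 2024 with any 1 array left out. Day arrays gave 1188 calls, 1881 when the 13 arrays were fitted alone, 2288 with array weights, 639 without arrays of GAPDH ratio above 3 (an alternative added after seeing the data), and 803 to 1033 with any 1 array left out. Night arrays gave 1476, 2572 with array weights, and 1002 to 1403 with any 1 left out. The night-day difference gave 2 calls, 1 with a constant of 64, 7 with brain arrays alone and 9 with the 13 arrays alone. It gave 118 with array weights and 1 to 3 with any 1 left out. In that last series ciarta was always called and 7 of 13 left-out arrays gave 1 call. The difference from the change between 3 and 5 days and 1 to 2 years gave 1104 calls and 2019 with array weights. It gave 928 to 1186 with any 1 left out. The brain-pineal difference gave 2696 calls and 2428 to 2803, and the 1 to 2 year comparison 2404 and 2301 to 2501. The cause of these shifts was not tested. The replicate number as a block gave 2004 calls (961 higher, 1043 lower) and changed no other count by more than 1.5 times; deviations of same-numbered arrays across the ages correlated by -0.0326 to 0.0848 over 6 pairs, and 3 of 6 correlated best with their own number, so the numbers were not taken as pairs. The median change of all probe sets was 0.03, -0.08 without scaling and 0.05 with median centring. Of 171 called genes that the rule chose and the text names, 148 kept the call in all alternatives, 23 lost it in some (12 with a constant of 64, 9 without day replicate 3 of the 3-month group) and 0 reversed. The full set of genes examined, with those the text leaves out, was less stable. It held 236 called genes, of which 172 kept the call and 64 lost it in some. The call was lost by 40 with a constant of 64 and by 19 without day replicate 3 of the 3-month group, and 0 reversed. Levels near the floor of the scale limit what dim genes can show.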

Other observations

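Some further genes with large changes belong to none of the lists above. dhrs12la, a short-chain dehydrogenase gene, was 7.0 to 8.13 at 10 days and 10.90 to 12.25 at 3 months (lowest to highest). tcimb ranged from 4.28 to 6.97 at 10 days and from 8.22 to 10.54 at 3 months. col10a1b, a gene of the type X collagen family, ranged from 4.26 to 6.22 at 10 days and from 6.48 to 9.75 at 3 months, but its median at 1 to 2 years was 6.07. All 3 rose without an overlap between the ages, though they were chosen that way. Their changes were 4.08, 3.32 and 3.55 on the log2 scale with limma.

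Genes called in opposite directions by the 2 comparisons that share no array were looked at after their values were seen. Among them 4 fell from 10 days to 3 months but were higher at 1 to 2 years than at 3 and 5 days: junba, a Jun family factor (changes -1.19 and 1.34), zgc:77614 (-1.18 and 1.73), oaz2b, an antizyme that restrains polyamine synthesis (-1.12 and 1.51), and kif20a, a kinesin known from cell division (-1.07 and 1.39). The difference between the changes follows from that choice and has no test. Each had its highest median at 10 days among the 5 ages, such as 12.58 for kif20a against 9.12 at 3 days and 11.49 at 5 days.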
